A study of Mus musculus with 8 samples.

Results

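The glycolysis genes described here were 10 genes chosen by symbol: the glucose transporter Slc2a1, the kinase Hk2, and the genes Aldoa, Tpi1, Gapdh, Pgk1, Pgam1, Eno1, Pkm and Ldha, which encode enzymes from the splitting of the sugar to lactate. They are 10 of the 51822 gene symbols measured, and all 10 were above the minimum level used for testing. RNA sequencing was carried out on mouse osteoblast progenitors in osteogenic medium (alpha-MEM with 10% FBS, ascorbic acid, dexamethasone at 10 nM and β-glycerophosphate). The methods of the study describe them as calvarial cells, which are isolated from the skulls of neonatal mice, whereas MC3T3-E1, a mouse osteoblastic line, is the cell named in the labels. Cells received the vehicle DMSO (control) or 1 µM LAMZ (locamidazole), the aminoindazole derivative under study, and were harvested at day 7 or day 14, which gave 4 groups of 2 libraries. No label says whether the 2 libraries of a group came from separate cultures, so the spread between them may be technical. Each value is an RPKM, that is, reads per kilobase of gene and scaled to the mapped reads of the library.

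Glycolysis converts glucose to pyruvate in the cytosol and yields ATP without oxygen, and lactate dehydrogenase then turns pyruvate into lactate. Osteoblasts are known to take up much glucose and to release lactate while they build the matrix. Most of these genes are known targets of the hypoxia-inducible factor HIF-1 and of Myc, which raise them together. Gapdh, besides its place in the pathway, is widely used as a reference for qRT-PCR, and the study normalised its qRT-PCR to Gapdh.

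All libraries carried RNA of osteoblasts: each of 10 osteoblast markers was above 0 in every library, and their summed RPKM was between 7180 and 18310. The 11 macrophage markers measured summed to between 452 and 1137 RPKM in the 4 control libraries and to between 7.19 and 9.13 in the 4 LAMZ libraries, in which 5 or 6 of the 11 were at 0. The 6 adipocyte markers summed to between 21.4 and 96.8 RPKM in control and between 5.97 and 9.02 with LAMZ, and the 7 markers of proliferating cells to between 81.1 and 91.3 at day 7 and between 33.7 and 45.0 at day 14. The library size recovered from the values was 3463536 to 5832098 mapped reads. The 7SL RNA gene Rn7s1 alone accounted for 18.1% to 33.7% of the summed RPKM of a library.

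HIF-1 and Myc are known to bind near the start of transcription of many of their target genes, among other places. Windows from 250 bases before to 50 bases after each start were taken from RefSeq (build GRCm38.p6), and all 10 genes had at least 1. The motif ACGTG, a form of the core of the hypoxia response element, was searched on both strands. Other forms of that core, such as GCGTG, were not searched. CACGTG, the E-box that Myc binds, was searched likewise and contains ACGTG on each strand. ACGTG was present in 8 of the 10 genes (all except Tpi1 and Eno1), against 21.8% of 27025 genes with a window. Counted by window, 9 of 16 windows of the 10 genes (56.2%) held it, against 19.6% of all 32851 windows and 24.4% of the 13319 windows whose GC content lay within the range of the glycolysis windows, 52.7% to 69.0%. CACGTG was present in 1 of the 10 genes, Ldha, against 8.1% of all genes and 7.2% of all windows. These are matches of letters and not measured binding sites. The windows of 6 genes are shown, 5′ to 3′ on the strand of the gene, with the matches in capitals: Slc2a1 (chr4:119108495-119108794, plus strand) and Hk2 (chr6:82774405-82774704, minus strand) as the genes with the largest differences at day 7, Pgk1 (chrX:106186850-106187149, plus strand) and Ldha (chr7:46845554-46845853, plus strand, the 5′ of its 2 windows) as enzymes with several matches, Gapdh (chr6:125165724-125166023, minus strand) as the reference gene, and Tpi1 (chr6:124814109-124814408, minus strand) as a gene without a match.
Slc2a1: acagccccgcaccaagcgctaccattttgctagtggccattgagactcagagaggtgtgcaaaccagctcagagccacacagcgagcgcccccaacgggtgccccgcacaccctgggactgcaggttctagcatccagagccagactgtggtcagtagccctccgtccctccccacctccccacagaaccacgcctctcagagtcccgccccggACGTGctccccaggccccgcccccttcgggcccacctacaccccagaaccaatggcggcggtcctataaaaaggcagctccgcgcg
Hk2: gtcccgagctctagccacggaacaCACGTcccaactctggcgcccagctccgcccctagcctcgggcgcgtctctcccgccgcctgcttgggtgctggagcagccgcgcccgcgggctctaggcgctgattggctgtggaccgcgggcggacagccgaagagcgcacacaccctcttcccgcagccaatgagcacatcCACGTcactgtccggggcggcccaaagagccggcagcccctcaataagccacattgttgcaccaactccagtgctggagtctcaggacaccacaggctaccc
Pgk1: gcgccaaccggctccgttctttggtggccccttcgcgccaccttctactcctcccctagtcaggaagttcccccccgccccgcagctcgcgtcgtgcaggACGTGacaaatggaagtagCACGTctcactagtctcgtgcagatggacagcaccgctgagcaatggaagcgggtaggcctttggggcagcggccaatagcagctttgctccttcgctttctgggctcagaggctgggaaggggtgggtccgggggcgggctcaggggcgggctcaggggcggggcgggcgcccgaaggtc
Ldha: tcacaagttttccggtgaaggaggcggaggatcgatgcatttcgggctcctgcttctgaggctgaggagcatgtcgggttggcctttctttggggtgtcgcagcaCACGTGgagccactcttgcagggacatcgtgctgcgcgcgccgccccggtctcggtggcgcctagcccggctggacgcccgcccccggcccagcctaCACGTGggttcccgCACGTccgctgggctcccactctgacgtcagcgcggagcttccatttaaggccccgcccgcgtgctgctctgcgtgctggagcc
Gapdh: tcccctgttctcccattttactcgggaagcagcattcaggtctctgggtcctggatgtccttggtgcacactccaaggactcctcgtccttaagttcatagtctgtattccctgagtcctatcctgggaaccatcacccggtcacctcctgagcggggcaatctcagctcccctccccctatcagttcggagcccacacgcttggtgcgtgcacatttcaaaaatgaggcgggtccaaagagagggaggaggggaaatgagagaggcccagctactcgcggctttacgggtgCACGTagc
Tpi1: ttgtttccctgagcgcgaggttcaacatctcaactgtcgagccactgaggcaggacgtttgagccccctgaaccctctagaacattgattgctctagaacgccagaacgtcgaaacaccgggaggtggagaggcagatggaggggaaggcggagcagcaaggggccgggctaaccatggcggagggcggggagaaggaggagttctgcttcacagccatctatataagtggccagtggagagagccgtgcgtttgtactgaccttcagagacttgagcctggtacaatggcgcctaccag

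Most of the pathway was higher with LAMZ at day 7. At that day, 9 of the 10 genes were higher with LAMZ at an adjusted p under 0.05 and none was lower, and for all 10 each LAMZ library exceeded both control libraries. Among all 12514 genes tested, 4.35% were higher and 8.49% were lower, and 20.4% had such a separation of the libraries. The remaining gene was Gapdh. The median difference of the 10 genes was 0.75 on the log2(RPKM + 1) scale, beside -0.08 over all genes tested. At day 14, 5 of the 10 were higher (Slc2a1, Aldoa, Tpi1, Pgk1 and Pkm) and none was lower, beside 6.96% higher and 16% lower among all genes, and the median difference was 0.44 beside -0.15. Each LAMZ library exceeded both control libraries for 9 of the 10 genes at day 14, against 20.1% of all genes, with Ldha as the exception. These counts depend on single libraries: 5 genes were called at day 7 when either LAMZ library of day 7 was left out, and 1 or 2 at day 14 when any of the 4 libraries of day 14 was left out. In such fits, the lone library of a group is assumed to vary like the others.

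Summed over the 10 genes, the RPKM was 1209 and 1286 in the day 7 control libraries, 2026 and 2141 in the day 7 LAMZ libraries, 1249 and 1374 in the day 14 control libraries and 1690 and 1683 in the day 14 LAMZ libraries. The sum was thus higher with LAMZ in each library of each day, and the day 7 LAMZ libraries were the highest. In terms of reads, the 10 genes took 0.405% to 0.443% of the mapped reads in control libraries, 0.659% and 0.691% with LAMZ at day 7, and 0.538% and 0.545% with LAMZ at day 14. In bulk RNA, a change in the number of cells that use a gene and a change in its RNA per cell cannot be told apart. Between LAMZ and control, the macrophage and adipocyte markers moved in the opposite direction, whereas the osteoblast markers moved with the glycolysis genes. From day 7 to day 14 with LAMZ, the median difference was instead 0.84 for the osteoblast markers and -0.30 for the glycolysis genes. Of the osteoblast markers, 7 of 10 were higher with LAMZ and none was lower at each day, with median differences of 1.21 and 1.16. Among all genes, 4.35% were higher and 8.49% lower at day 7, and 6.96% and 16% at day 14. Most of the summed RPKM of the osteoblast markers came from Col1a1 and Col1a2, neither of them called at day 7. At day 7 the sum was 7180 and 8843 in control and 10928 and 10357 with LAMZ. At day 14 it was 10740 and 10269 in control and 16511 and 18310 with LAMZ. The part of any of these shifts in the glycolysis values was not tested.

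**Figure D1:**
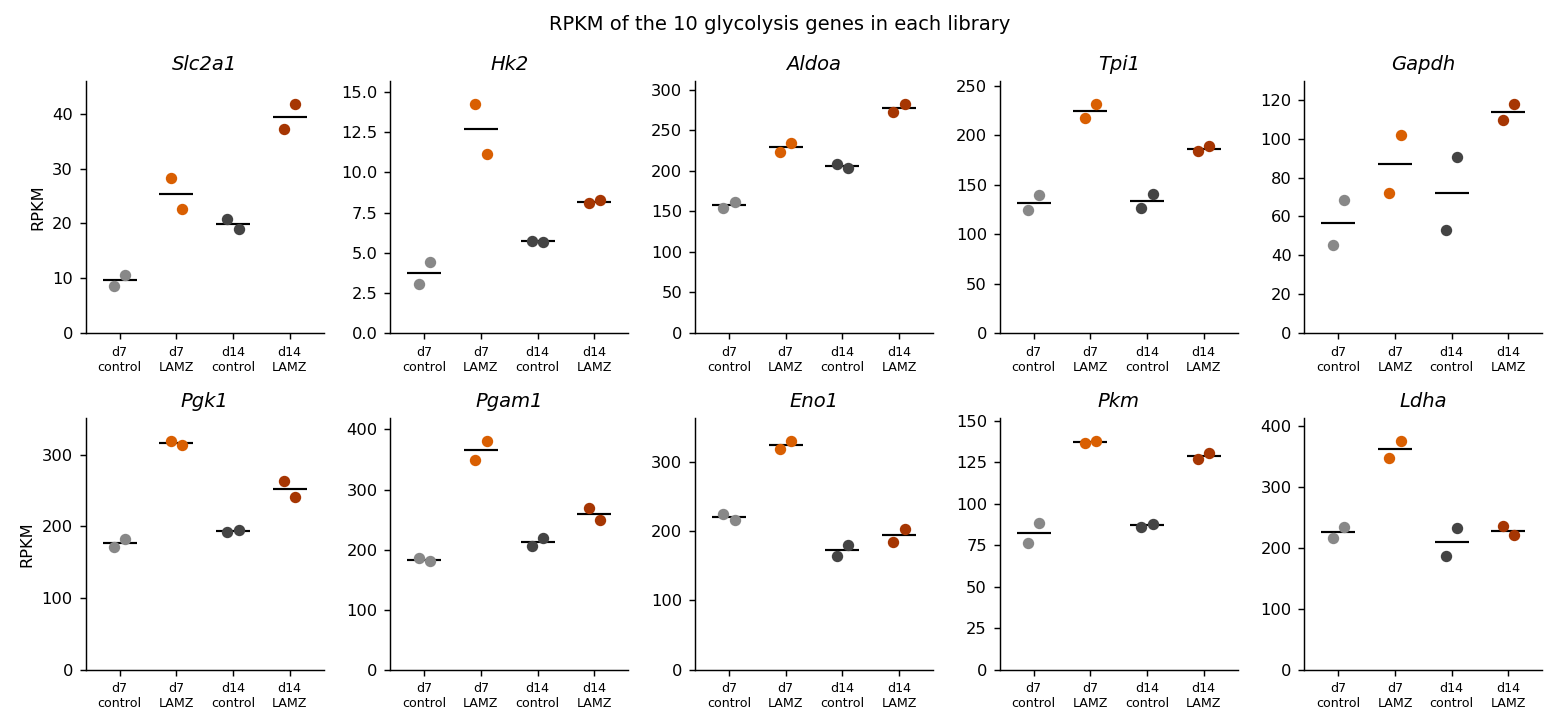
RPKM (vertical axes, each starting at 0) of the 10 glycolysis genes in the 4 groups, with a point for each library and a line at the group mean. The day 7 LAMZ points lie above the day 7 control points in all 10 panels, as do the day 14 LAMZ points above the day 14 control points in all panels but that of Ldha, whereas the 2 points of a group lie far apart for Gapdh in 3 of the 4 groups.

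At day 7, the largest differences were those of the genes for the uptake and first phosphorylation of glucose, Slc2a1 and Hk2. Slc2a1 encodes GLUT1, the main glucose transporter of osteoblasts. Its RPKM was 8.62 and 10.6 in control and 28.2 and 22.6 with LAMZ at day 7, and 20.8 and 19.1 in control and 37.2 and 41.8 with LAMZ at day 14. The 4 groups did not overlap, and control cells of day 14 came close to LAMZ-treated cells of day 7. The log2 difference between LAMZ and control was 1.31 ± 0.15 (SE, adjusted p = 0.0017) at day 7 and 0.95 ± 0.15 (adjusted p = 0.00383) at day 14. Slc2a1 was the only one of the 10 that was called at day 14 with every library rescaled to the same sum of RPKM (log2 difference 0.60, adjusted p = 0.0201) and with quantile normalization (0.99, adjusted p = 0.00667).

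Hk2 encodes hexokinase 2, which phosphorylates glucose and so keeps it in the cell. Its RPKM was 3.07 and 4.45 in control and 14.3 and 11.1 with LAMZ at day 7, the largest difference among the 10 genes (1.53 ± 0.17, adjusted p = 0.00135). At day 14 it was 5.74 and 5.67 in control and 8.10 and 8.27 with LAMZ, and this smaller difference (0.45 ± 0.17) did not pass the threshold (adjusted p = 0.0922), although the libraries did not overlap. With 69 to 363 reads in a library, Hk2 had the fewest reads of the 10 genes. The exact Poisson interval of its lowest library was 2.39 to 3.88 RPKM, so counting error was larger here than for the other enzymes.

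The sugar is then split by aldolase, and triose phosphate isomerase brings the products into the same route. Aldoa, the aldolase of muscle and most tissues, had an RPKM of 154 and 161 in control and 223 and 235 with LAMZ at day 7. Its day 14 values were 209 and 203 in control and 272 and 282 with LAMZ. Aldoa therefore was higher with LAMZ at both days, by 0.53 ± 0.11 (adjusted p = 0.0176) and 0.43 ± 0.11 (adjusted p = 0.0255). Tpi1, the isomerase, had 124 and 139 in control and 217 and 232 with LAMZ at day 7, and 127 and 140 in control and 184 and 189 with LAMZ at day 14. It was higher by 0.77 ± 0.12 (adjusted p = 0.00595) and 0.48 ± 0.12 (adjusted p = 0.0237), and its control level was nearly the same at both days.

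Pgk1, Pgam1, Eno1 and Pkm encode the enzymes of the lower part of the pathway, of which phosphoglycerate kinase and pyruvate kinase make ATP. The RPKM of Pgk1 was 171 and 182 in control and 320 and 313 with LAMZ at day 7, and 192 and 195 in control and 264 and 241 with LAMZ at day 14. It was higher by 0.84 ± 0.11 (adjusted p = 0.00306) and 0.38 ± 0.11 (adjusted p = 0.0438). Pkm, the pyruvate kinase gene, had 76.4 and 88.2 in control and 137 and 138 with LAMZ at day 7, and 85.9 and 87.9 in control and 127 and 130 with LAMZ at day 14. Its difference was similar in size at both days, 0.74 ± 0.11 (adjusted p = 0.00583) and 0.56 ± 0.11 (adjusted p = 0.0105).

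Pgam1 and Eno1, whose products act between those kinases, differed at day 7 and did not pass the threshold at day 14. The RPKM of Pgam1, the mutase, was 185 and 181 in control and 349 and 381 with LAMZ at day 7 (0.99 ± 0.11, adjusted p = 0.0017), and 206 and 219 in control and 269 and 250 with LAMZ at day 14 (0.29 ± 0.11, adjusted p = 0.112). The RPKM of Eno1, the enolase, was 225 and 216 in control and 319 and 331 with LAMZ at day 7 (0.56 ± 0.12, adjusted p = 0.0189), and 165 and 180 in control and 185 and 203 with LAMZ at day 14 (0.17 ± 0.12, adjusted p = 0.336). For both genes the LAMZ libraries of day 14 still lay above the control libraries, and for Eno1 the lowest LAMZ value (185) was close to the highest control value (180). Ldha, the lactate dehydrogenase subunit that favours lactate, behaved alike at day 7, with 216 and 235 in control and 348 and 376 with LAMZ (0.68 ± 0.14, adjusted p = 0.0183). At day 14 its values were 187 and 233 in control and 235 and 221 with LAMZ, and the groups overlapped (0.13 ± 0.14, adjusted p = 0.557). The 95% confidence interval of this last difference was -0.20 to 0.45, which still holds differences of the size seen in other members.

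**Figure D2:**
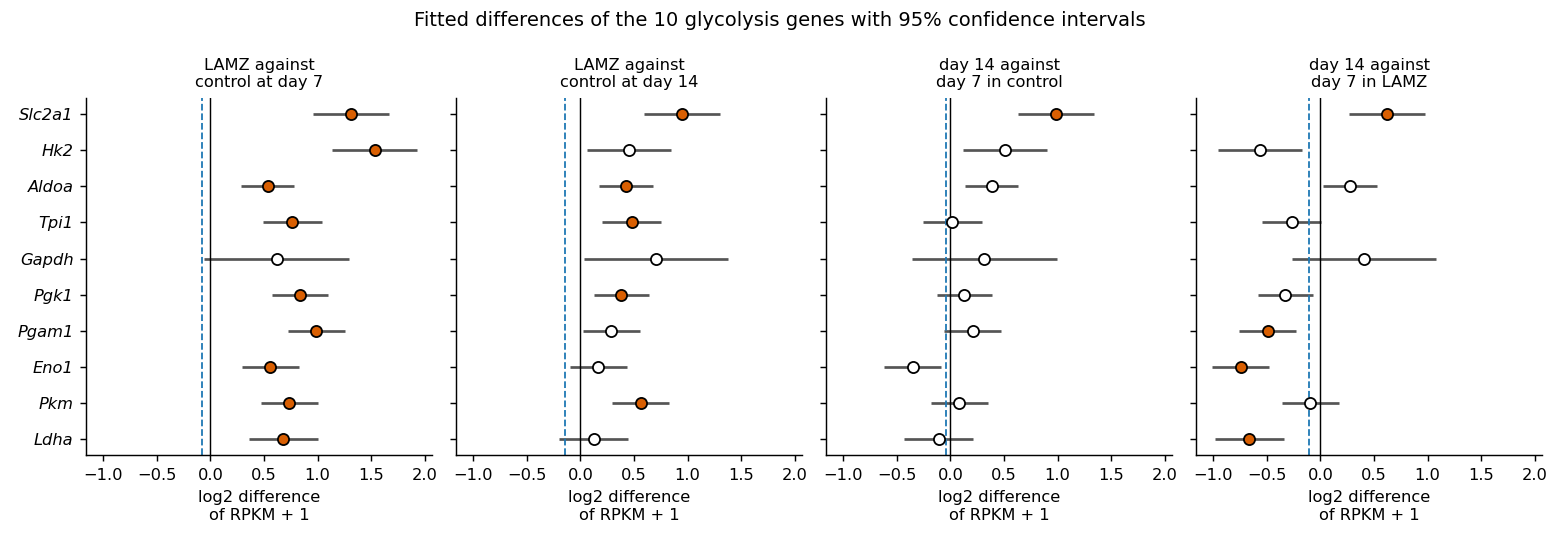
Fitted log2 differences of RPKM + 1 (points) with 95% confidence intervals (lines) for the 10 genes in 4 comparisons, filled where the adjusted p is under 0.05, with the median of all tested genes as a dashed line. In the first panel 9 of 10 points are filled and all 10 lie right of 0, in the second 5 are filled, in the third only Slc2a1 is filled, and in the last Slc2a1 lies right and Pgam1, Eno1 and Ldha lie left of 0; at day 14, Pgam1, Eno1 and Ldha fall below 0 when libraries are rescaled to the same sum or quantile normalised, and Pgk1 under the latter.

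With both days averaged, all 10 genes were higher with LAMZ, Gapdh included (0.66 ± 0.21, adjusted p = 0.0448), beside 9.12% of all genes. The averaged call of Gapdh was lost in 6 of the 8 fits that left out a library (adjusted p = 0.0527 to 0.141), and kept without the second control library of day 7 or of day 14 (0.0299 and 0.0201). It was also lost without a mean-variance trend (0.0589), without a filter on low values (0.127), with the same sum of RPKM in every library (0.216) and with quantile normalization (0.0914). The averaged differences ranged from 0.36 ± 0.08 for Eno1 to 1.13 ± 0.11 for Slc2a1. A test of whether the LAMZ difference changed between the days called none of the 10 genes at an adjusted p under 0.05, beside 0.623% of all genes, and 5 of them had an unadjusted p under 0.05 (Hk2, Pgk1, Pgam1, Eno1 and Ldha). The largest changes were those of Hk2, which was smaller at day 14 by 1.08 ± 0.24 (adjusted p = 0.099), and Pgam1, smaller by 0.70 ± 0.16 (adjusted p = 0.104). Hence 9 genes were called at day 7 and 5 at day 14, but a difference between the days was not shown for any single gene.

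In control cells, the pathway moved little between day 7 and day 14. Slc2a1 was higher at day 14 by 0.98 ± 0.15 (adjusted p = 0.0156), beside 2.46% of all genes, and no other member was called in either direction. This call was lost when either day 14 control library or the first day 7 control library was left out. The differences of Hk2 (0.51 ± 0.17, adjusted p = 0.132), Aldoa (0.38 ± 0.11, adjusted p = 0.0878) and Eno1 (-0.35 ± 0.12, adjusted p = 0.127) did not pass the threshold. Those of the remaining members lay between -0.11 for Ldha and 0.32 for Gapdh.

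In LAMZ-treated cells, the members diverged with time. Slc2a1 was again higher at day 14 (0.62 ± 0.15, adjusted p = 0.033), whereas Eno1 (-0.74 ± 0.12, adjusted p = 0.00647), Ldha (-0.66 ± 0.14, adjusted p = 0.0187) and Pgam1 (-0.49 ± 0.11, adjusted p = 0.0273) were lower. Among all genes, 5.1% were higher and 9.26% lower. Hk2 did not pass the threshold (-0.57 ± 0.17, adjusted p = 0.0626), and Tpi1, Pgk1 and Pkm differed by -0.27 ± 0.12, -0.33 ± 0.11 and -0.09 ± 0.11. Aldoa (0.28 ± 0.11, adjusted p = 0.126) and Gapdh (0.41 ± 0.29, adjusted p = 0.383) had positive differences that were not called. The 4 calls fell to 1 without either LAMZ library of day 14 or the first LAMZ library of day 7, that of Eno1, and to 0 without the second LAMZ library of day 7. These comparisons share their libraries with those between LAMZ and control, so that the high day 7 LAMZ libraries enter both.

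Gapdh stood apart from the other members by the distance between replicates. Its RPKM was 45.1 and 68.2 in control and 71.9 and 102 with LAMZ at day 7, and 52.9 and 90.8 in control and 110 and 118 with LAMZ at day 14. The library numbered 2 was the higher in all 4 groups, by 0.59, 0.50, 0.77 and 0.10 on the log2(RPKM + 1) scale for day 7 control, day 7 LAMZ, day 14 control and day 14 LAMZ. With 436 to 1643 reads, counting error did not span the gap in 3 of the 4 groups: the exact Poisson intervals of the 2 libraries were 40.9 to 49.5 and 62.9 to 73.9 RPKM in the day 7 control group, 67.0 to 77.1 and 96.7 to 107.6 in the day 7 LAMZ group, and 49.2 to 56.9 and 85.4 to 96.5 in the day 14 control group. In the day 14 LAMZ group the intervals overlapped (104.6 to 115.3 and 111.9 to 124.0). Averaged over the groups the gap was 0.49, larger than for 95.9% of 1557 genes of higher level. Those genes had a mean log2(RPKM + 1) above the log2 of 20, and their median gap was 0.17. Of the other members, Slc2a1 (0.22), Hk2 (0.20) and Ldha (0.16) had the next largest gaps. The rest lay between 0.06 for Aldoa and 0.11 for Tpi1.

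The difference of Gapdh between LAMZ and control had the largest error of the 10 genes. It was 0.62 ± 0.29 at day 7 (95% confidence interval -0.06 to 1.29, adjusted p = 0.214) and 0.71 ± 0.29 at day 14 (0.03 to 1.38, adjusted p = 0.121). Its size rested on single libraries: leaving out each library in turn, it ranged at day 7 from 0.32 without the first day 7 control library to 0.91 without the second, and was 0.37 and 0.87 without the second and the first day 7 LAMZ library. At day 14 it ranged from 0.32 without the first day 14 control library to 1.09 without the second, and Gapdh was called at neither day in any of these fits. Each LAMZ library was above the controls of its day, at day 7 by a narrow margin (71.9 against 68.2). Reads that match several copies of a gene are a known problem for Gapdh, and how the authors' program placed them is not given in the sources used here. The pseudogene rows Gapdh-ps14 and Gapdh-ps15 held at most 0.575 and 0 RPKM, and the testis paralog Gapdhs at most 0.550. Likewise low were the rows of Ldha-ps, Ldha-ps2 and Pgam1-ps1 (all 0), Pgam1-ps2 (at most 0.347), Pgk1-ps3 (0.160), Pgk2 (0.129), Aldoart1 (0.418), Aldoart2 (0.337) and Eno1b (1.81). Copies under other symbols were not examined, so the levels of these genes are uncertain to that extent.

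Gapdh was set beside 18 other genes that are commonly used as references. By the largest difference between group means it ranked 3 of 19, with 1.02 after the transferrin receptor gene Tfrc (1.25) and B2m (1.16), and by the mean gap between replicates it ranked first. For Gapdh that largest difference ran from day 7 control (mean RPKM 56.6) to day 14 LAMZ (114), so it covers time as well as LAMZ. It also rests on means of 2 libraries, which the gap between replicates affects. Smaller differences between group means were seen for Tbp (0.14), Ywhaz and Polr2a (0.29 each), Nono and Ppib (0.34 each) and Actg1 (0.37). Tbp was at only 0.742 to 1.25 RPKM, where the log2(RPKM + 1) scale understates differences. Of the 18, Tfrc (0.91, adjusted p = 0.00638) and the ribosomal gene Rplp0 (0.43, adjusted p = 0.0491) were higher and B2m (-0.63, adjusted p = 0.0181) was lower with LAMZ at day 7. At day 14, Rplp0 (0.94), Rps18 (0.89) and Eef1a1 (0.62) were higher, and B2m (-0.88) and Gusb (-0.84) were lower. The shares over all genes were 4.35% higher and 8.49% lower at day 7, and 6.96% and 16% at day 14. Actb, another common reference, was lower by 0.50 at day 7 (adjusted p = 0.0502) and by 0.11 at day 14 (adjusted p = 0.609). The remaining references, Hprt, Ppia, Rpl13a, Sdha and Tubb5, had differences between -0.32 and 0.64 at the 2 days and were not called.

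**Figure D3:**
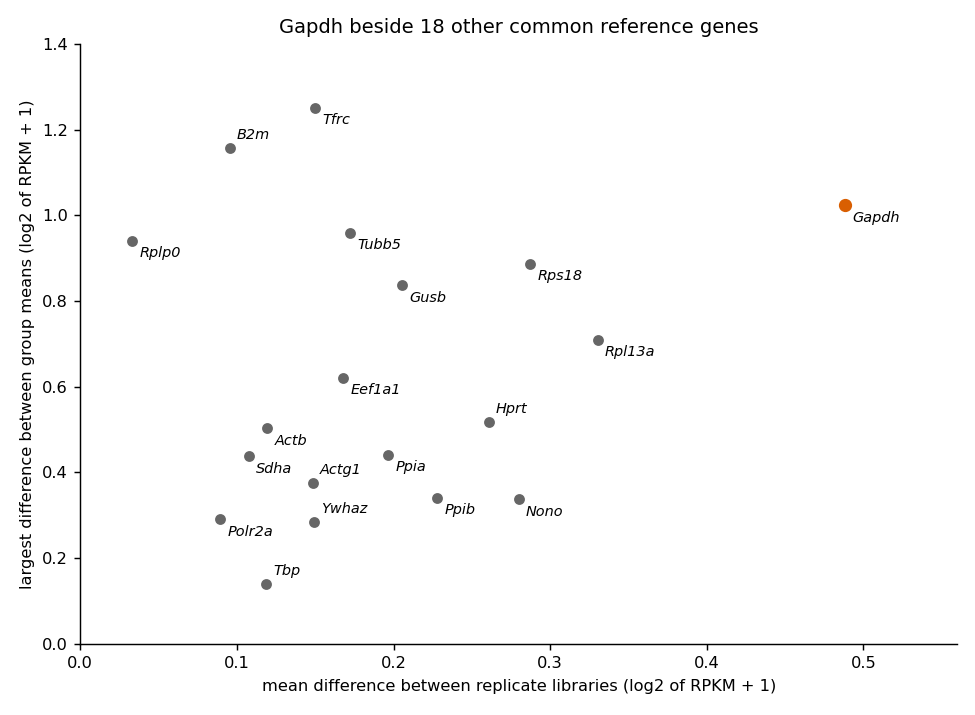
Each point is a reference gene, placed by the mean difference between its replicate libraries (horizontal axis) and the largest difference between its group means (vertical axis), both in log2 of RPKM + 1. Gapdh lies farthest right at 0.49 and below only Tfrc and B2m at 1.02. Tbp lies lowest at 0.14, with an RPKM of only 0.742 to 1.25, where this scale understates differences.

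The choice of scaling between libraries changed how much of the pathway was called. When the median of the tested genes was set equal in all libraries (centring), 9 members were called at day 7 and 8 at day 14 (all except Gapdh and Ldha). With every library rescaled to the same sum of RPKM, which is set in part by Rn7s1, 6 were called at day 7 and 1 at day 14, and quantile normalization gave the same counts. At day 7 the members kept the direction of LAMZ above control under these 3 scalings, and at day 14 Pgam1, Eno1 and Ldha turned below 0 under the same sum and quantile normalization, as did Pgk1 under the latter. The same sum moved the median of all genes from -0.08 to -0.31 at day 7 and from -0.15 to -0.43 at day 14, and the median of the members from 0.75 to 0.45 and from 0.44 to 0.09. Among all genes called, the share that was higher with LAMZ at day 7 was 33.9% as deposited, 53.5% after centring, 45.7% after quantile normalization and 8.69% with the same sum. At day 14 these shares were 30.3%, 56.3%, 47.9% and 8.16%.

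When every library was divided by its Gapdh value, the scaling that a Gapdh reference applies, no member was called in any comparison. Few genes of any kind were called higher with LAMZ under this scaling. They were 6.04% of the 1275 genes called at day 7 and 3.35% of the 2506 called at day 14. Gapdh is itself a member, and its gap between replicates (0.49 on average) enters the value of every gene. The differences of Hk2 and Slc2a1 at day 7 were then 1.02 (adjusted p = 0.0786) and 0.73 (adjusted p = 0.226), those of Aldoa and Eno1 turned to -0.09 and -0.07, and at day 14 all of the other 9 members except Slc2a1 (0.26) lay below 0. The median of all tested genes moved to -0.59 at day 7 and -0.68 at day 14 under this scaling.

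**Figure D4:**
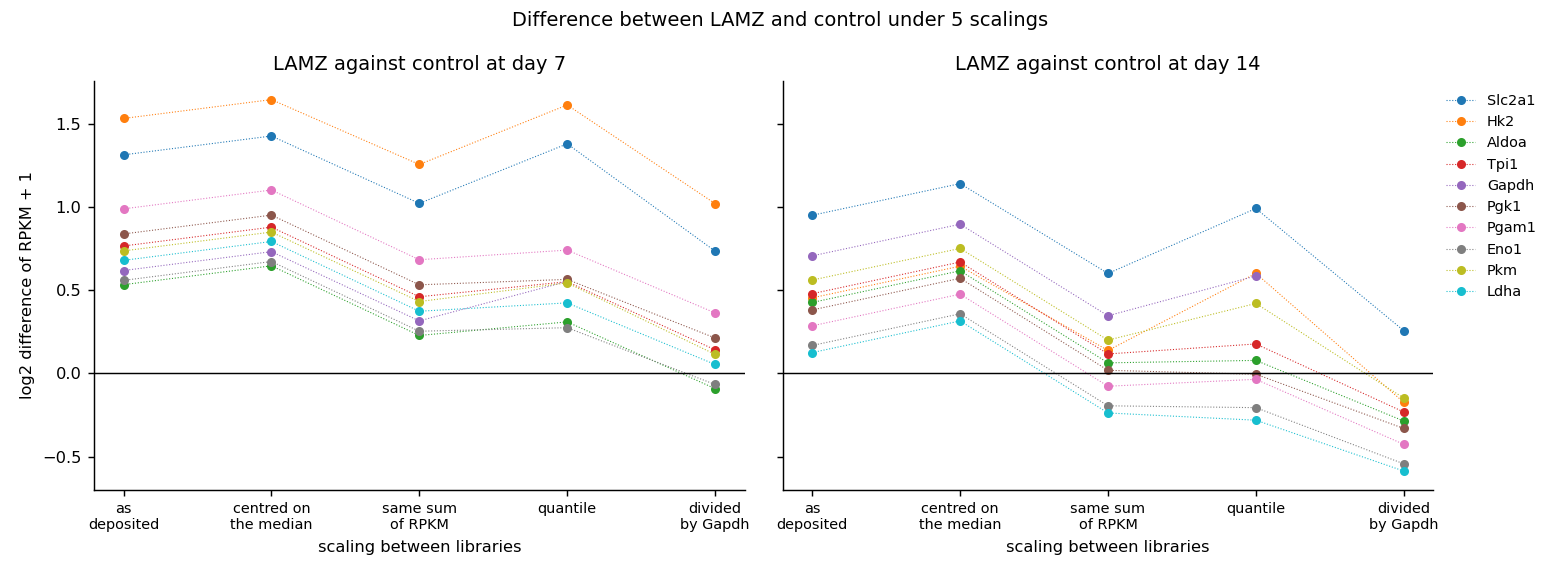
Log2 difference of RPKM + 1 between LAMZ and control (vertical axis) of each member under 5 scalings between libraries (horizontal axis) at day 7 and day 14, with dotted lines that only join the points of a gene. The day 7 points stay above 0 except Aldoa and Eno1 after division by Gapdh, and at day 14 Pgam1, Eno1 and Ldha fall below 0 with the same sum and quantile normalization, Pgk1 with quantile normalization, and all but Slc2a1 after division by Gapdh.

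The level of RNA per length was lowest for Hk2 in every group, followed by Slc2a1, Gapdh, Pkm and Tpi1. Pkm and Gapdh overlapped in the day 14 control group, Tpi1 and Aldoa overlapped with LAMZ at day 7, and Tpi1 and Eno1 overlapped with LAMZ at day 14. Aldoa, Pgk1, Pgam1, Eno1 and Ldha held the 5 upper places, and their order changed between the groups. The highest mean was that of Ldha in day 7 control (225 ± 13.0, SD, n = 2), of Pgam1 with LAMZ at day 7 (365 ± 22.8) and in day 14 control (212 ± 9.37), and of Aldoa with LAMZ at day 14 (277 ± 7.24). In the first 3 of these groups the next gene overlapped with it, Eno1 at day 7 in control and Ldha in the other two. The order rests on the length by which each gene was divided, which was recovered from the values as 5379 bases for Eno1 and 3762 for Aldoa, beside 2027 and 1549 for their longest RefSeq mRNA. Divided by the latter lengths, Eno1 came first in both day 7 groups and Aldoa in both day 14 groups. Comparisons of a gene between groups are not affected by that length.

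Across the 8 libraries the members varied alike to different degrees. The correlation of each with the mean standardized profile of the other 9 was 0.98 for Tpi1, Pkm and Pgk1, 0.94 for Hk2 and Pgam1, 0.72 for Ldha and Aldoa, 0.71 for Slc2a1, 0.66 for Gapdh and 0.54 for Eno1. These describe 8 libraries in 4 groups and so mostly the differences between the groups. The mean profile was lowest in the day 7 control libraries (-1.14 and -0.75) and highest in the day 7 LAMZ libraries (0.96 and 1.09). Outside the members, the genes with the most similar profile were Thsd4 (r = 0.993), Farp2 (0.992), Ptch1 (0.987), Adamts18 (0.982) and R3hcc1l (0.982), over the same 8 libraries. Ptch1, the receptor of hedgehog ligands, ranged from 3.17 to 12.2 RPKM.

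Of 29 other genes of glycolysis, 21 were expressed above the minimum. At day 7, 8 were higher and 2 lower with LAMZ, beside 4.35% and 8.49% of all genes, and at day 14, 6 were higher and 3 lower, beside 6.96% and 16%. The median difference was 0.17 and 0.16, beside 0.75 and 0.44 for the members. Slc16a3, the lactate exporter MCT4, had the largest increase at day 7. Its RPKM was 12.2 and 17.3 in control and 41.4 and 48.3 with LAMZ at day 7 (1.56 ± 0.17, adjusted p = 0.00138), and 14.3 and 14.2 in control and 22.2 and 25.9 with LAMZ at day 14 (0.71 ± 0.17, adjusted p = 0.0219). Eno3, the muscle enolase, was higher by 1.01 ± 0.13 (adjusted p = 0.00241) and 1.13 ± 0.13 (adjusted p = 0.000787), and Pgam2, the muscle mutase, by 1.00 ± 0.22 at each day (adjusted p = 0.0242 and 0.0145). The 6 skeletal muscle markers summed to between 1.88 and 3.58 RPKM in control libraries and between 4.69 and 8.48 with LAMZ. The part of muscle cells in the Eno3 and Pgam2 values was not tested.

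Hk3, the hexokinase of leukocytes, moved the other way. Its RPKM was 1.94 and 2.35 in control and 0.06 and 0.05 with LAMZ at day 7, and 6.22 and 4.03 in control and 0.23 and 0.17 with LAMZ at day 14. It was lower by 1.57 ± 0.21 (adjusted p = 0.003) and 2.33 ± 0.21 (adjusted p = 0.000263). The macrophage markers moved with it: Lyz2, the macrophage lysozyme, was between 312 and 789 RPKM in control libraries and between 5.29 and 8.20 with LAMZ, and Tyrobp and C1qa were at 0 in all 4 LAMZ libraries. The part of these cells in the Hk3 values was not tested.

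Hypoxia-response genes outside the pathway were mostly higher with LAMZ at day 7. Of 22, all were tested, and 18 were higher and 1 was lower at day 7 with a median difference of 1.07, beside 4.35% higher and 8.49% lower of all genes. At day 14, 11 were higher and 3 were lower with a median of 0.53, beside 6.96% and 16% of all genes. With the same sum of RPKM in every library, 14 were higher and 1 was lower at day 7, and 4 were higher and 4 lower at day 14. The count at day 14 also fell to between 4 and 7 higher when any of the 4 libraries of day 14 was left out. Slc16a3 belongs to this list as well. Egln3, an oxygen-sensing prolyl hydroxylase that HIF-1 induces, had 6.08 and 9.65 RPKM in control and 54.0 and 45.9 with LAMZ at day 7 (2.55 ± 0.21, adjusted p = 0.000375), and 22.3 and 29.4 in control and 54.4 and 57.1 with LAMZ at day 14 (1.09 ± 0.21, adjusted p = 0.00861). Car9, a carbonic anhydrase of the cell surface, was higher by 2.06 ± 0.28 (adjusted p = 0.00338) and 0.93 ± 0.28 (adjusted p = 0.0476). P4ha2, a subunit of the enzyme that hydroxylates collagen, was higher by 1.17 ± 0.12 (adjusted p = 0.00102) and 1.68 ± 0.12 (adjusted p = 8.94e-05).

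Adm, which encodes the peptide adrenomedullin, was the exception at both days. Its RPKM was 24.7 and 20.3 in control and 9.99 and 11.5 with LAMZ at day 7, and 30.4 and 30.1 in control and 7.94 and 5.69 with LAMZ at day 14. It was lower by 1.00 ± 0.17 (adjusted p = 0.00805) and 2.01 ± 0.17 (adjusted p = 0.000174). Plod2 and Bnip3l were the other genes of this list that were lower at day 14, by 0.73 and 0.38, after being higher at day 7 by 0.52 and 0.47.

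**Figure D5:**
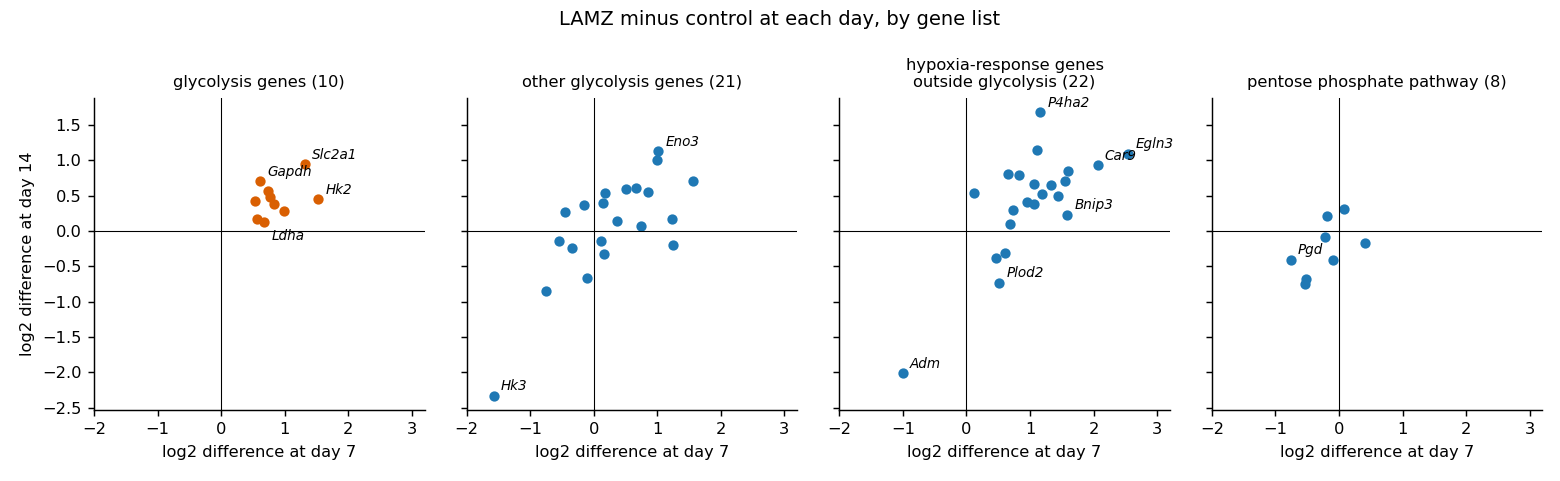
Log2 difference of RPKM + 1 between LAMZ and control at day 7 (horizontal axis) and day 14 (vertical axis) for each tested gene of 4 lists, with a point for each gene. The 10 members lie right of and above 0, the hypoxia-response genes lie mostly there with Adm below and left, the other glycolysis genes scatter around 0 with Hk3 lowest, and most genes of the pentose phosphate pathway lie left or below; at day 14, Pgam1, Eno1 and Ldha fall below 0 with the same sum and quantile normalization, and Pgk1 with the latter.

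Among 17 regulators of these genes, 14 were tested. At day 7, 2 were higher and 3 were lower, beside 4.35% and 8.49% of all genes. At day 14, 1 was higher and 2 were lower, shares near those of all genes (6.96% and 16%). Hif1a, the oxygen-regulated subunit of HIF-1, had 17.1 and 15.1 RPKM in control and 24.3 and 23.8 with LAMZ at day 7 (0.55 ± 0.14, adjusted p = 0.0388), and 15.9 and 19.7 in control and 25.2 and 22.2 with LAMZ at day 14 (0.40 ± 0.14, adjusted p = 0.0755). Myc was higher by 1.41 ± 0.12 (adjusted p = 0.000446) and 1.14 ± 0.12 (adjusted p = 0.000613). The part of either factor in the glycolysis values was not tested.

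Txnip, which holds back glucose uptake, showed the opposite. Its RPKM was 51.7 and 61.4 in control and 8.43 and 14.4 with LAMZ at day 7, and 75.9 and 94.3 in control and 4.70 and 3.99 with LAMZ at day 14. It was lower by 2.25 ± 0.23 (adjusted p = 0.00098) and 4.01 ± 0.23 (adjusted p = 3.23e-05). Epas1, which encodes HIF-2α, was lower by 1.36 ± 0.12 (adjusted p = 0.000455) and 1.31 ± 0.12 (adjusted p = 0.000257), and Egln2, another prolyl hydroxylase, by 0.73 ± 0.17 (adjusted p = 0.0296) at day 7 and 0.25 ± 0.17 (adjusted p = 0.339) at day 14.

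The routes that lead away from glycolysis gave mixed results. Among all genes tested, 4.35% were higher and 8.49% lower with LAMZ at day 7, and 6.96% and 16% at day 14. The day 7 counts of the lists below were near these shares. In the pentose phosphate pathway, none of 8 genes was higher at either day, 1 was lower at day 7 (Pgd, by 0.76 ± 0.10, adjusted p = 0.00329) and 4 were lower at day 14, namely Taldo1 (by 0.74 ± 0.17), G6pdx (by 0.68 ± 0.16), H6pd (by 0.42 ± 0.11) and Pgd (by 0.40 ± 0.10). Of 15 genes for the entry of pyruvate into mitochondria, Pdk1, the kinase that closes this entry and a known target of HIF-1, was higher at day 7 (0.95 ± 0.14, adjusted p = 0.00453), and at day 14 the phosphatase gene Pdp1 (by 0.92 ± 0.12), the kinase genes Pdk4 (by 0.89 ± 0.22) and Pdk3 (by 0.49) and Pdpr (by 0.48 ± 0.13) were lower. Among 19 genes of the branches to glycogen, hexosamine and serine, 1 was higher and 1 lower at day 7, and 6 were higher and 4 lower at day 14. The higher ones included all 3 enzymes that make serine from a glycolytic intermediate, Phgdh (1.80 ± 0.17, adjusted p = 0.000295), Psph (1.31 ± 0.19, adjusted p = 0.00258) and Psat1 (1.15 ± 0.17, adjusted p = 0.00292), and the lower ones Gpd1 (by 1.17 ± 0.24, adjusted p = 0.0116). Phgdh had 15.7 and 21.4 RPKM in control and 69.5 and 63.4 with LAMZ at day 14, against 19.4 to 25.7 in all 4 libraries of day 7.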

How the data were processed

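RNA sequencing of 8 libraries (4 groups of 2, grouped by the day, stimulation and replicate in the sample labels) was analysed. The authors sequenced on an Ion Proton, used CLC Genomics Workbench for the analysis, and deposited an RPKM for every gene symbol. The submitters' processing notes name the build mm10, and the program's version and settings are not given in the sources used here. Of 51826 entries in each file, 4 with a repeated symbol were dropped. Mapped reads were recovered as the number at which low values of single-exon genes of GENCODE M21 become whole reads within 0.05 of a read, which held for 97.0% to 98.1% of 843 to 1476 values for each library. Intervals cover counting error only.

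Genes were kept when 2 or more libraries reached an RPKM of 1, which left 12514. Their log2(RPKM + 1) was modelled by group in limma 3.58.1 (R 4.3.3) over all 8 libraries, leaving 4 residual degrees of freedom, with a mean-variance trend. Tests were two-sided, with Benjamini-Hochberg adjustment over all 12514 genes and a threshold of 0.05. Differences on this scale understate those of low genes. The script was tested on simulated data. The 10 genes and the lists were chosen with earlier results of these data known. Of each list, up to 4 genes past the threshold with the largest averaged difference were named, together with Hif1a, Epas1, Myc, Txnip, the reference genes (2 of those planned are not reported here), and the 5 genes most correlated with the members. Pdk3, Plod2, Bnip3l and the marker genes were named after their values had been seen. The alternatives were other pseudocounts, filters, scalings between libraries, variance models, replicate blocks and leaving out each library.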

Additional observations from a re-analysis of the deposited data

Results flagged for a closer look

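In the lists around the glycolysis genes, 3 genes were noted because the difference between LAMZ and control itself differed between day 7 and day 14 in the interaction test of limma. Bnip3, a mitophagy receptor of the hypoxia-response list, was higher with LAMZ by 1.58 at day 7 and by 0.23 at day 14, a change of -1.35 on the log2 scale (adjusted p = 0.0287). Plod2, a lysyl hydroxylase of the same list, was higher by 0.52 at day 7 and lower by 0.73 at day 14, a change of -1.25 (adjusted p = 0.0452). Phgdh, the first enzyme of serine synthesis, went from 0.21 at day 7 to 1.80 at day 14, a change of 1.59 (adjusted p = 0.0369). None of the 10 glycolysis genes met this test. These calls were weak: all 3 kept their direction but lost the call when any of the 8 libraries was left out, with adjusted p from 0.0522 to 0.127 for Bnip3, 0.0636 to 0.181 for Plod2 and 0.0715 to 0.148 for Phgdh. They were also lost without a mean-variance trend, without a filter on low values, after division by Gapdh and with the replicate block, and Plod2 and Phgdh with a pseudocount of 0.1. Over all genes, the number called fell from 78 to between 0 and 21 when a library was left out.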

How the results depend on the processing

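Of 1214 alternative values of single members, 1021 kept direction and side of the threshold, 137 lost the call, 13 gained it and 43 changed sign, and of 336 alternative counts of the other lists 256 stayed within 1.5 times. The cause of the changes was not tested. Of the 10 genes, 9 were called at day 7, 5 at day 14, 10 averaged over both days, 0 for the difference between days, 1 for control over time and 4 for LAMZ over time. Without a filter on low values, which tests more genes, the counts were 2 at day 14 and 1 for LAMZ over time. Centring gave 8 at day 14. The same sum gave 1 at day 14, 6 averaged and 3 for control over time, and quantile normalization gave 1 at day 14 and 5 averaged. The same sum without the 10 highest genes, chosen after seeing the data, gave 2 at day 14. Division by Gapdh gave 0 in every comparison. With only the 4 libraries compared, the counts were 0 for control and 2 for LAMZ over time. Leaving out each library in turn, assuming that a lone library varies like the others, gave 5 to 9 at day 7, 1 to 5 at day 14, 7 to 10 averaged, 0 to 0 for the difference between days, 0 to 1 for control over time and 0 to 5 for LAMZ over time.

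Over all tested genes, libraries with the same number deviated from their group means with correlations of -0.0166 (day 7), 0.0158 (day 14), 0.0620 (control over time) and -0.0342 (LAMZ over time). Such correlations include the counting error of low genes and cannot exclude a shared culture or run. No label gives one, so whether the numbers pair the libraries is unknown. As a term over all libraries, the replicate block gave counts that were 9, 5, 10, 0, 1 and 3 in the order above, and the adjusted p of Gapdh was 0.0632 at day 7 and 0.0269 at day 14. With the replicate block as pairs of 4 libraries, which leaves few degrees of freedom, 0 were called at day 7, 2 at day 14, 0 for control over time and 0 for LAMZ over time. Gapdh was among those called at day 14 (adjusted p = 0.0455).

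Changes of sign were as follows, all on the log2 scale. LAMZ against control at day 14 became -0.0767 for Pgam1, -0.19 for Eno1 and -0.24 for Ldha with the same sum. With quantile normalization it became -0.00481 for Pgk1, -0.0353 for Pgam1, -0.21 for Eno1 and -0.28 for Ldha. Divided by Gapdh, it became -0.0912 for Aldoa and -0.0663 for Eno1 at day 7. At day 14 it became -0.17 for Hk2, -0.29 for Aldoa, -0.23 for Tpi1, -0.33 for Pgk1, -0.43 for Pgam1, -0.54 for Eno1, -0.15 for Pkm and -0.59 for Ldha, and averaged over both days -0.19 for Aldoa, -0.0448 for Tpi1, -0.0586 for Pgk1, -0.0311 for Pgam1, -0.30 for Eno1, -0.0166 for Pkm and -0.27 for Ldha. Divided by Gapdh, day 14 against day 7 became -0.30 for Tpi1, -0.19 for Pgk1, -0.11 for Pgam1 and -0.24 for Pkm in control and -0.13 for Aldoa with LAMZ. For Pkm with LAMZ over time it became 0.00906 (centred), 0.11 (same sum) and 0.0519 (quantile), and for Ldha in control over time 0.15 (same sum) and 0.00778 (quantile).

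Leaving out each library in turn gave -0.0331 to 0.28 for Ldha at day 14, -0.30 to 0.47 for the difference of Gapdh between days, and in control over time -0.0625 to 0.10 for Tpi1, -0.0203 to 0.18 for Pkm and -0.0666 to 0.70 for Gapdh. In control over time, Tpi1 (-0.0625) and Pkm (-0.0203) turned without the first day 7 control library, Ldha (0.0483) without the first day 14 control library, and Tpi1 (-0.0557) and Gapdh (-0.0666) without the second. Ldha at day 14 was -0.0331 without the first day 14 control library. The difference of Gapdh between days was -0.21 without the second day 7 control library, -0.16 without the first day 7 LAMZ library and -0.30 without the first day 14 control library.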

Other observations

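Of the genes for making glucose, Pck2, the mitochondrial form of PEPCK, was higher with LAMZ at day 14 (1.24 ± 0.14, adjusted p = 0.000809) and not at day 7 (0.21 ± 0.14, adjusted p = 0.373). Its RPKM was 4.37 to 6.21 in the 4 libraries of day 7, between 10.1 and 11.0 in day 14 control and 27.0 and 25.4 in day 14 LAMZ. In the glycogen branch, Gys1, the glycogen synthase, was higher at both days (0.88 and 0.67) and Pygb, a glycogen phosphorylase, was lower at both (-0.84 and -0.82). Pfkfb3, which makes an activator of phosphofructokinase, was at 6.38 and 9.74 RPKM in control and 22.5 and 17.9 with LAMZ at day 7, and within 7.15 and 9.62 in all 4 libraries of day 14. Slc2a3, the transporter GLUT3, was at a lower level, with 0.48 and 0.84 RPKM in control and 2.75 and 2.94 with LAMZ at day 7. At day 14 it had 1.08 and 0.98 in control and 1.30 and 1.24 with LAMZ (0.16 ± 0.17, adjusted p = 0.529). Gys1, Pygb, Pfkfb3 and Slc2a3 were picked after their values had been seen.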
